A study of Mus musculus with 16 samples.

Results

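The comparison described here is that of TNF with PBS in mice pretreated with DEX, read in sorted Paneth cells of the small intestine. Members were taken by their labels: 4 DEX+TNF libraries and 4 DEX+PBS libraries, of 16 libraries in 4 groups of 4, and every expressed gene, 11809 of the 55414 genes in the count table. Each library came from 1 C57BL/6J mouse, and Paneth cells were isolated by fluorescence-activated cell sorting. The first injection was DEX or PBS, the second, 1 h later, was TNF or PBS, and tissue was taken 3 h after that. DEX+PBS animals thus carried the DEX pretreatment without TNF, DEX+TNF animals carried both, PBS+TNF animals received TNF alone and PBS+PBS animals received vehicle at both times. All groups shared strain and injection scheme, and doses and ages are not given in the sources used here. Per the study's methods the sort left few contaminating cells, and markers of other cell types are given below as the libraries hold them.

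TNF is an inflammatory cytokine that binds TNFR1 and, through adaptor proteins and the IKK kinases, releases NF-κB dimers into the nucleus, where they induce chemokines, adhesion molecules, survival genes and their own inhibitors. Glucocorticoids act through the glucocorticoid receptor, which induces one set of genes and represses many NF-κB and AP-1 targets. Paneth cells lie at the base of the small intestinal crypts, secrete α-defensins and lysozyme, and feed the neighbouring stem cells with growth factors and Notch ligands.

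The 4 DEX+TNF libraries did not resemble each other, so the main results are given for each of them singly. The labels give these 4 animals the same treatment, and whether each of them received it equally was not tested. Over all tested genes the median SD of log2 CPM (the count of a gene relative to the scaled size of its library) was 0.490 in DEX+TNF and 0.332 in DEX+PBS, and it was larger in DEX+TNF for 8513 of 11809 genes. DEX+TNF 1 and DEX+TNF 2 correlated with each other at a Spearman rho of 0.985 across genes. They were also the closest pair within any group by a chi-square between their counts. It was 9.31 per degree of freedom, against 25.2 to 373 for the other pairs within a group. Why these libraries were so alike was not tested. DEX+TNF 1 correlated with the PBS+TNF libraries at 0.901 to 0.977 and with the DEX+PBS libraries at 0.905 to 0.931. DEX+TNF 3 stood the other way, at 0.881 to 0.915 with PBS+TNF and 0.941 to 0.965 with DEX+PBS. DEX+TNF 4 lay at 0.810 to 0.907 with PBS+TNF and 0.907 to 0.947 with DEX+PBS. These are descriptions across genes, which are not independent replicates. Libraries held 7286307 to 15832111 counts, and DEX+TNF 4 also stood apart in its mitochondrial mRNA share, 3.24% against 0.470 to 1.37% in the other libraries given DEX.

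Paneth transcripts were present throughout. CPM here are scaled by trimmed mean of M-values (TMM) factors, so totals differ between libraries. Lyz1, which encodes the lysozyme of the granules, was at 138919, 153506, 167397 and 47672 CPM in libraries DEX+TNF 1 to 4 and 44032 to 153651 CPM in DEX+PBS. Summed CPM over 8 tuft cell markers was 1.94, 0.243, 196 and 708 in DEX+TNF 1 to 4, against 20.5 to 111 in DEX+PBS. Of those 8 markers, 3, 6, 1 and 0 were at 0 in DEX+TNF 1 to 4. Summed over 10 enterocyte markers it was 142, 134, 162 and 684 in DEX+TNF 1 to 4 and 256 to 374 in DEX+PBS. DEX+TNF 3 and 4 therefore exceeded every DEX+PBS library for tuft markers, and DEX+TNF 4 did so for enterocyte markers. Over 12 stromal and endothelial markers the sums were 1.12 to 3.88 CPM in DEX+TNF, with 6 to 10 of them at 0. Ptprc, 1 of 18 immune markers, was at 0, 0, 5.82 and 21.0 CPM in DEX+TNF and 0.362 to 2.91 CPM in DEX+PBS. Of the others, Cd3e, Cd3g, Cd8a, Ms4a1, Itgax, S100a8, S100a9, Nkg7, Gzma and Gzmb were at 0 in every library. Lyz2 was lower in DEX+TNF 4 than in any DEX+PBS library. Cd68, Cx3cr1 and Adgre1 were highest in DEX+TNF 4, but only at 0.598, 0.349 and 0.0499 CPM. Whether Ptprc, a pan-leukocyte marker, came from leukocytes was not tested. DEX+TNF 4 also exceeded every DEX+PBS library for stem and cycling markers. The ranges of these and the other marker sums overlapped between the 2 groups, at 268 to 1277 CPM in DEX+TNF and 277 to 731 CPM in DEX+PBS for stem cells, 39.9 to 201 and 58.7 to 169 CPM for cycling cells, 7130.1 to 21088 and 10957 to 19191 CPM for goblet cells, 14.0 to 43.0 and 11.3 to 34.4 CPM for enteroendocrine cells and 42.1 to 97.0 and 23.6 to 68.2 CPM for immune cells, most of which was Lyz2 except in DEX+TNF 4. In bulk libraries such as these, fewer cells of a type and less RNA per cell cannot be told apart, and the part of RNA from these cell types in the results was not tested.

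The DEX label was checked on Fkbp5 and Sgk1, which glucocorticoids are known to induce. Fkbp5, a co-chaperone of the glucocorticoid receptor, was at 43.2, 44.5, 44.6 and 135 CPM in libraries DEX+TNF 1 to 4 and 47.3 to 79.5 CPM in DEX+PBS, while the libraries without DEX lay between 6.51 and 31.0 CPM. Sgk1, a kinase induced by glucocorticoids, was at 24.8, 32.4, 33.6 and 115 CPM in DEX+TNF and 1.11 to 7.94 CPM in the libraries without DEX. Every library labelled DEX thus stood above every library labelled PBS in its first injection for both genes, in DEX+TNF 1 and 2 as in 3 and 4.

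The first question is which genes TNF changed after DEX. At an adjusted p under 0.05, by edgeR's quasi-likelihood test with Benjamini-Hochberg adjustment, 40 of 11809 genes were called, which is 0.339% of those tested. Of these, 38 (0.322%) were higher after TNF and 2 (0.0169%) lower. At an unadjusted p under 0.05, 842 genes were higher (7.13%) and 385 lower (3.26%). The called genes had adjusted p between 0.0456 and 0.0491, so all lay just inside the threshold. The count rose to 362 without DEX+TNF 3 and to 230 without DEX+TNF 4, and it was 0 without any 1 of the other 14 libraries. It was also 0 with the DEX libraries fitted alone, where the smallest adjusted p was 0.228, and 6 with no filter on low counts. DESeq2 called 259 genes on the same counts, including all 40. In what follows, called means past the threshold by edgeR in the fit of all 4 groups.

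The 38 genes that rose can be grouped by role. They held 3 inhibitors of NF-κB (Nfkbia, Tnfaip3 and Tnip1), 3 NF-κB subunits (Nfkb2, Rel and Relb), the chemokines Ccl20 and Cxcl16, the adhesion molecule Icam1, the receptors Tlr2 and Osmr, the death genes Casp4, Bid and Bok, and the nitric oxide pair Nos2 and Gch1. The others included Gpr37l1, Steap4, Il4i1, Irf5, Tat, H2-K2, Pfkfb3, Parp14, Socs3, Neurl3, Mtmr7, Cebpd, Snx10, 4930523C07Rik, Junb, Trim12a, Samd9l, Ypel2, Mdm4, Cd47 and Armc10. For the 35 with over 3 counts in the DEX+PBS group the log2 fold change ran from 1.09 (Armc10) to 8.24 (Icam1), with a median of 3.02. Gpr37l1 was at 5.32, 6.79, 0 and 1.35 CPM in libraries DEX+TNF 1 to 4 and had no count in any DEX+PBS library, nor in DEX+TNF 3. The mean of DEX+TNF was at least 59.7-fold higher than that of DEX+PBS, taking a floor of 3 counts over the control group, or 0.0564 CPM. Il4i1 and Irf5 had 1 and 2 counts in all of DEX+PBS, so no fold change is given for them. H2-K2 is annotated as a transcribed unprocessed pseudogene. It belongs to the class I histocompatibility family, whose near-identical members can share reads, and its value is uncertain for that reason.

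By library, the rise of the called genes was uneven. All 38 were above the highest DEX+PBS library in DEX+TNF 1 and again in DEX+TNF 2. In DEX+TNF 3 the number was 26 and in DEX+TNF 4 it was 36. Their median difference from the DEX+PBS mean, in log2 CPM, was 3.82, 3.86, 0.67 and 1.37 in DEX+TNF 1 to 4. A difference over 1 was found for 38, 38, 11 and 28 of them. At or above the lowest PBS+TNF library stood 22, 25, 2 and 2. Since the call was made on these libraries, the numbers describe how it was shared among them. The heatmap of called genes shows the same per gene.

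**Figure D1:**
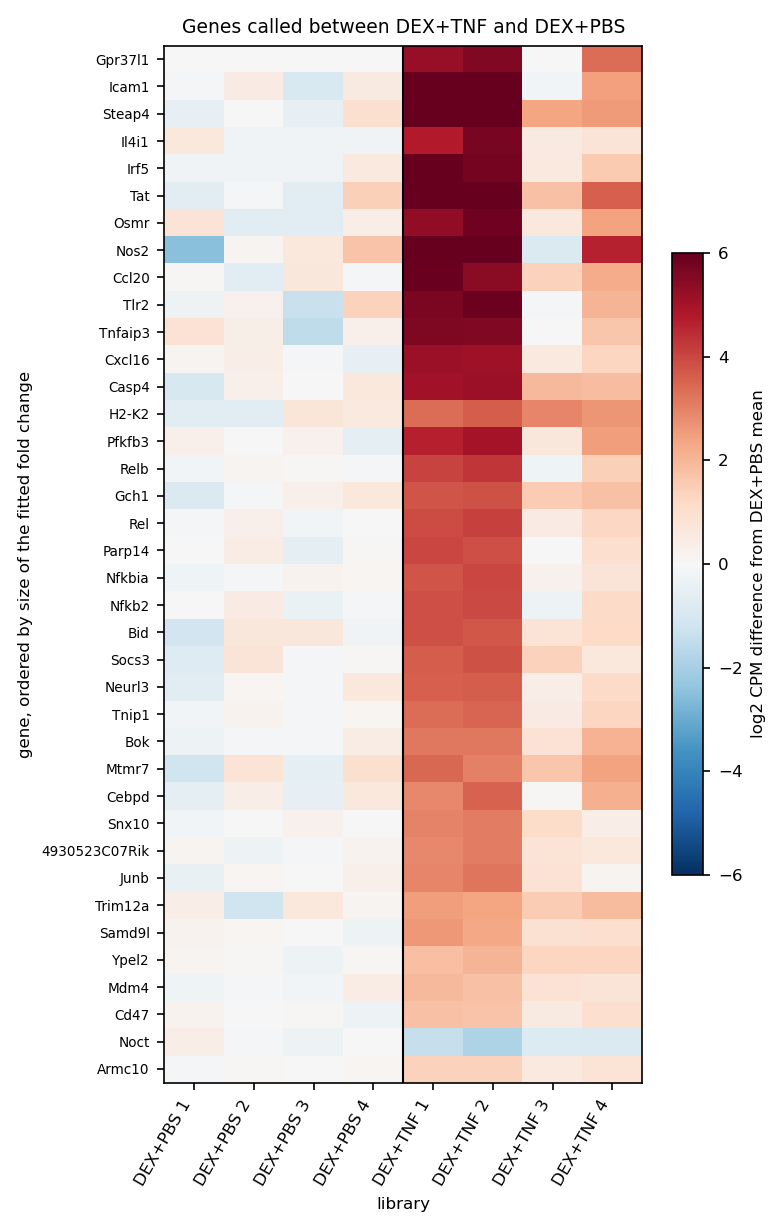
Difference of each DEX library from the DEX+PBS mean, in log2 CPM, for the called genes named in the text (rows) in the 4 DEX+PBS and 4 DEX+TNF libraries (columns), with colour limited at ±6. The columns of DEX+TNF 1 and 2 are the most strongly coloured, with medians of 3.82 and 3.86 over the genes that rose, and those of DEX+TNF 3 and 4 are paler, with medians of 0.67 and 1.37.

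Genes called by the contrast of the PBS+TNF and PBS+PBS groups gave the same unevenness. The filter, scaling and spread of that fit came from all 16 libraries, so the choice was not wholly free of the DEX libraries. TNF without DEX, PBS+TNF against PBS+PBS, called 844 genes higher (7.15% of those tested) and 632 lower (5.35%). Over the 844, the median difference from the DEX+PBS mean was 1.29, 1.35, 0.01 and 0.25 in log2 CPM in libraries DEX+TNF 1 to 4. The PBS+TNF libraries stood at 1.51 to 1.67 from the PBS+PBS mean over the same genes, although these had been chosen on them, and the DEX+PBS libraries at -0.09 to 0.09 from their own mean. In DEX+TNF 1 and 2, 91.5% and 92.5% of the 844 exceeded all 4 DEX+PBS libraries. In DEX+TNF 3 and 4 the shares were 26.9% and 40.2%, with 20.5% and 12.4% below all 4. Of all tested genes, 29.2%, 29.1%, 25.5% and 26.4% exceeded all 4 DEX+PBS libraries in DEX+TNF 1 to 4. In DEX+TNF 3 and 4, 25.9% and 24.8% of all tested genes lay below all 4. The share of the 844 above all 4 in DEX+TNF 3 was therefore near that of all genes. DEX+TNF 3 was thus close to the DEX+PBS mean at the median, and DEX+TNF 4 only a little above it.

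The 632 genes that fell with TNF alone were lower in all 4 libraries at the median, and again least in DEX+TNF 3. Their median differences were -0.76, -0.74, -0.14 and -0.26 in DEX+TNF 1 to 4, against -1.53 to -1.06 in the PBS+TNF libraries. Below every DEX+PBS library lay 78.5%, 78.3%, 36.6% and 44.9% of them. For all tested genes these shares were 29.95%, 29.96%, 25.9% and 24.8% in DEX+TNF 1 to 4. Over all 11809 genes, the difference in each library correlated with the fold change of TNF alone at a Spearman rho of 0.597, 0.602, 0.0519 and 0.110. These correlations are across genes and describe these libraries only. The PBS and DEX groups share no library, though both were in the same fit.

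**Figure D2:**
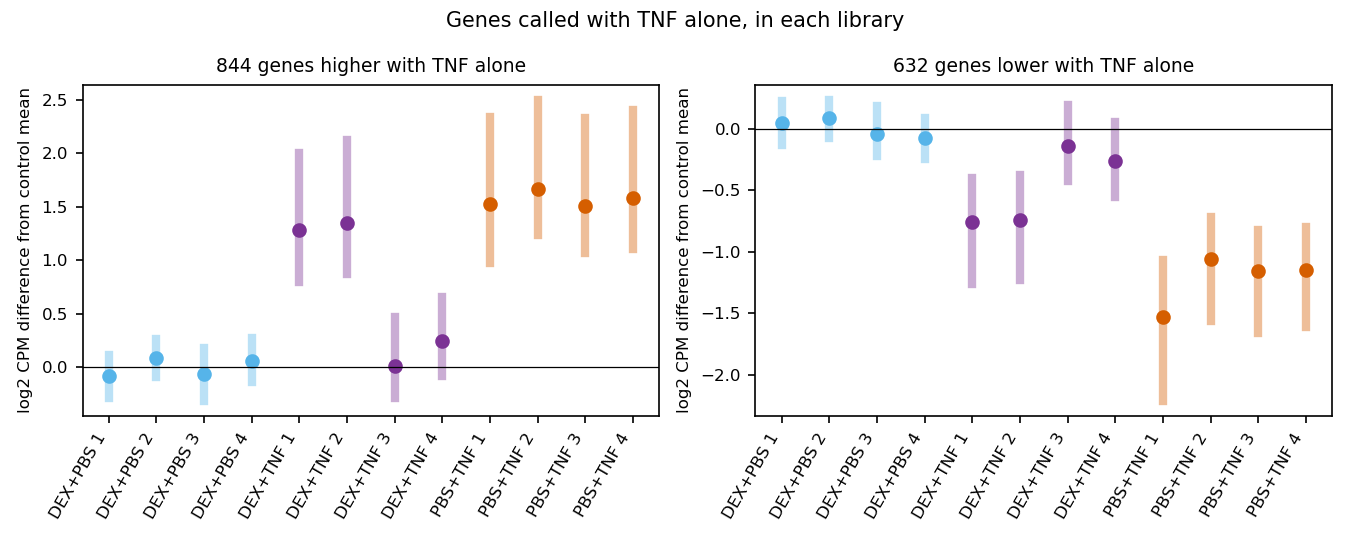
Median difference from the control mean in log2 CPM, with bars for the quartiles over genes, for 844 genes higher and 632 genes lower with TNF alone, 1 point per library. DEX+TNF 1 and 2 sit at 1.29 and 1.35 for the higher genes, near the PBS+TNF libraries at 1.51 to 1.67, and DEX+TNF 3 and 4 sit at 0.01 and 0.25.

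**Figure D3:**
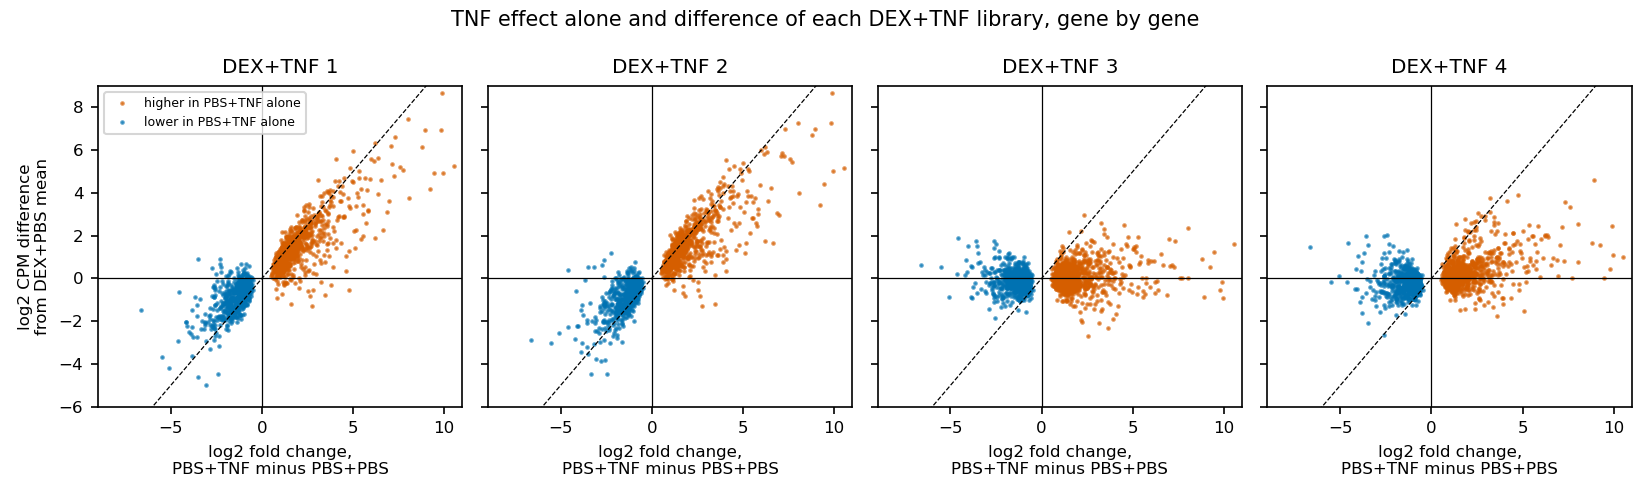
Log2 fold change of TNF without DEX (x axis, from edgeR) against the difference of 1 DEX+TNF library from the DEX+PBS mean (y axis, log2 CPM), 1 panel per DEX+TNF library. Points are the 844 genes higher and the 632 genes lower with TNF alone, and the dashed line marks equal values. The clouds of DEX+TNF 1 and 2 run along the line, and those of DEX+TNF 3 and 4 lie flatter. Across the higher genes rho was 0.734, 0.741, 0.0966 and 0.318 in DEX+TNF 1 to 4. Across the lower genes it was 0.551, 0.562, -0.104 and -0.0414.

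The inhibitors that NF-κB induces against itself held 3 called genes. Nfkbia (ENSMUSG00000021025, chromosome 12, 55535332 to 55539432, minus strand, GRCm39) encodes IκBα, which holds NF-κB in the cytoplasm. It was at 330.0, 382, 28.3 and 41.0 CPM in libraries DEX+TNF 1 to 4, at 19.5, 22.7, 27.3 and 26.1 CPM in DEX+PBS 1 to 4 and within 277 to 337 CPM in PBS+TNF. DEX+TNF 1 lay within and DEX+TNF 2 above the PBS+TNF values, while DEX+TNF 3 and 4 lay above the highest DEX+PBS library but far below DEX+TNF 1 and 2. The log2 fold change was 3.03 ± 0.61 (n = 4 in each group, adjusted p = 0.0456), and it ran from 2.48 to 3.39 when each library was left out in turn. Here and below, the value after ± is an approximate SE derived from the test statistic.

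Tnfaip3 encodes A20, an enzyme that edits ubiquitin chains on NF-κB signalling proteins. Its level was 115, 109.6, 2.25 and 7.38 CPM in DEX+TNF and 4.13, 2.89, 0.687 and 2.75 CPM in DEX+PBS, with a log2 fold change of 4.47 ± 0.90 (adjusted p = 0.0456). DEX+TNF 3 lay inside the DEX+PBS values. Tnip1, which encodes a partner of A20, was at 83.8, 90.6, 11.3 and 19.7 CPM and 7.04, 9.28, 7.33 and 8.57 CPM, and all 4 DEX+TNF libraries exceeded all DEX+PBS libraries (log2 fold change 2.67 ± 0.50, adjusted p = 0.0456). Of 13 tested members of the list of feedback inhibitors, 3 were called higher and none lower, 10 were higher at an unadjusted p under 0.05, and the median log2 fold change was 1.32, beside 0.03 over all genes. The list's median difference in DEX+TNF 1 to 4 was 2.02, 2.12, 0.01 and 0.79. Nfkbiz, an atypical IκB protein of the same list, had a log2 fold change of -0.13 and did not pass the test.

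The NF-κB subunit genes held 3 called members, and their products form the dimers of both arms of the pathway. Relb, a subunit of the non-canonical arm, was at 114, 134, 5.61 and 18.5 CPM in DEX+TNF and 6.07, 7.60, 6.99 and 6.37 CPM in DEX+PBS (log2 fold change 3.33 ± 0.66, adjusted p = 0.0456). Nfkb2, which encodes its partner, was at 234, 255, 13.1 and 36.5 CPM and 15.9, 22.7, 12.1 and 15.5 CPM (3.02 ± 0.63, adjusted p = 0.0491). Rel, which encodes c-Rel, was at 22.2, 25, 1.94 and 3.34 CPM and 1.21, 1.69, 1.15 and 1.27 CPM (3.27 ± 0.64, adjusted p = 0.0456). For each of these genes DEX+TNF 1 and 2 were several times as high as DEX+TNF 3 and 4. Among 15 tested subunits and kinases, 3 were called and 8 were higher at an unadjusted p under 0.05, with a median log2 fold change of 1.24 and library medians of 1.66, 1.82, 0.01 and 0.19. Birc3, which encodes the ubiquitin ligase cIAP2 and protects cells from TNF-induced death, was at 203, 204, 11.6 and 12.7 CPM in DEX+TNF and 8.50 to 13.3 CPM in DEX+PBS, and missed the threshold by edgeR at an adjusted p of 0.051, while by DESeq2 the adjusted p was 5.92e-05. Tnfrsf1a, which encodes the receptor TNFR1, was at 115, 126, 51.5 and 57.6 CPM in DEX+TNF and 68.7 to 88.6 CPM in DEX+PBS. It was higher than every DEX+PBS library in DEX+TNF 1 and 2 and lower than every one in 3 and 4.

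Promoter sequences of 4 called genes are shown because they carry the letters that NF-κB dimers bind. They run from 250 bases before to 50 after the start site of the canonical GENCODE M39 transcript in GRCm39, 5′ to 3′ on the gene's strand. Capitals mark matches to the κB consensus on either strand, overlapping matches counted singly. These genes were chosen for display after their values were seen. Nfkbia lies on the minus strand (chr12:55539383-55539682), with its match starting at position -29 from the start site. Icam1 (chr9:20926422-20926721, plus strand) has its match at -243, Ccl20 (chr1:83094237-83094536, plus strand) at -80 and Steap4 (chr5:8010010-8010309, plus strand) at -38 and -14.
Nfkbia: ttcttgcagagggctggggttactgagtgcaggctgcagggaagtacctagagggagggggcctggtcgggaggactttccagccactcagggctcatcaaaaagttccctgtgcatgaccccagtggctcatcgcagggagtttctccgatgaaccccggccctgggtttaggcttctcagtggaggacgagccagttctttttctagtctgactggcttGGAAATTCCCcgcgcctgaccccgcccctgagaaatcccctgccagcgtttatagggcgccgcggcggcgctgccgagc
Icam1: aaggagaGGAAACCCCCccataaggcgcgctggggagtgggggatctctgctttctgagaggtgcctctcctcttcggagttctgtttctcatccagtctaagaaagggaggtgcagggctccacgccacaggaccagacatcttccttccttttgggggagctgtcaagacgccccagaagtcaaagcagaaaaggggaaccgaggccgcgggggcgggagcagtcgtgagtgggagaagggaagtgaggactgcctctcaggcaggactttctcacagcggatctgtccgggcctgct
Ccl20: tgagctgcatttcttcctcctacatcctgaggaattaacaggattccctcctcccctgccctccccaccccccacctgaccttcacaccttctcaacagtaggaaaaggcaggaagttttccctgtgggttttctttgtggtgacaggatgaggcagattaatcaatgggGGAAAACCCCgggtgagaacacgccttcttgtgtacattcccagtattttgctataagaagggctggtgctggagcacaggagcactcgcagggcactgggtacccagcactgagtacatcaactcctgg
Steap4: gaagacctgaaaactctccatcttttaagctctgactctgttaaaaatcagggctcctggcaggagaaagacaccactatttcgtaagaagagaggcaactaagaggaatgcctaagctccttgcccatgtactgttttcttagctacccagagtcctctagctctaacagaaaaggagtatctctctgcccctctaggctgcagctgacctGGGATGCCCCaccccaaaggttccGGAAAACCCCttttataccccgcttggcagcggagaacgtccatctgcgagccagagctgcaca
The κB consensus occurred in 11 of 37 promoters of called genes that rose (29.7%), in 74 of 812 promoters of genes higher with TNF alone (9.11%) and in 566 of 11214 promoters of tested genes (5.05%). The core of the interferon-stimulated response element, TTTCNNTTTC on either strand, occurred in 1 of 37 (2.7%), 57 of 812 (7.02%) and 382 of 11214 (3.41%). The glucocorticoid response element GNACANNNTGTNC occurred in 0 of 37, 4 of 812 (0.493%) and 24 of 11214 (0.214%). Only promoters of protein-coding genes were searched, which leaves out the pseudogene H2-K2. A match is a description of the letters in this window and not a bound site.

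Chemokines and surface molecules included Icam1, with the largest fold change among called genes with over 3 control counts. Icam1 (ENSMUSG00000037405, chromosome 9, 20926672 to 20940113, plus strand), the ligand of leukocyte integrins, was at 116, 114, 0.102 and 1.40 CPM in libraries DEX+TNF 1 to 4 and 0.121, 0.241, 0 and 0.255 CPM in DEX+PBS 1 to 4, with 52.2 to 127 CPM in PBS+TNF. DEX+TNF 3 lay within the DEX+PBS values, and DEX+TNF 4 above them but far below DEX+TNF 1 and 2. The log2 fold change was 8.24 ± 1.61 (adjusted p = 0.0456). Ccl20 (ENSMUSG00000026166, chromosome 1, 83094487 to 83096888, plus strand), which recruits cells that carry CCR6, was at 36.9, 25.4, 1.43 and 2.64 CPM in DEX+TNF, 0.485, 0.241, 0.802 and 0.408 CPM in DEX+PBS, and PBS+TNF libraries held 16.2 to 28.5 CPM. All 4 DEX+TNF libraries were above all DEX+PBS libraries (log2 fold change 5.17 ± 0.89, adjusted p = 0.0456). Cxcl16, the membrane-bound ligand of CXCR6, was at 65.5, 63.7, 2.65 and 4.34 CPM and 1.94, 2.29, 1.60 and 1.17 CPM (4.28 ± 0.78, adjusted p = 0.0456).

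Cxcl10, a chemokine for T cells that interferons induce, was at 26.1, 33.0, 0 and 0.150 CPM in DEX+TNF and 0 to 0.241 CPM in DEX+PBS and missed the threshold (adjusted p = 0.0807). DEX+TNF 1 and 2 were high, and DEX+TNF 3 and 4 lay within the DEX+PBS values. Tnf itself was at 18.8, 17.0, 0 and 0.798 CPM and 0 to 0.607 CPM (adjusted p = 0.0734). Of 11 tested chemokines, 2 were called and 7 were higher at an unadjusted p under 0.05, and the median log2 fold change was 4.28. That median was 0.57 with the DEX libraries fitted alone and 0.61 with a filter of 5 CPM, each over the chemokines that the setting kept. In single libraries the chemokine median was 3.77, 2.43, 0.49 and 0.46, lower in DEX+TNF 3 and 4 than in 1 and 2. Of 10 tested cytokines and surface molecules, Icam1 alone was called, and the median was 0.93. Of 15 pattern recognition receptors 1 was called, Tlr2, which senses bacterial lipoproteins, at 46.3, 55.5, 0.715 and 3.69 CPM in DEX+TNF and 0.607, 0.965, 0.229 and 2.29 CPM in DEX+PBS (4.54 ± 0.93, adjusted p = 0.0488).

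**Figure D4:**
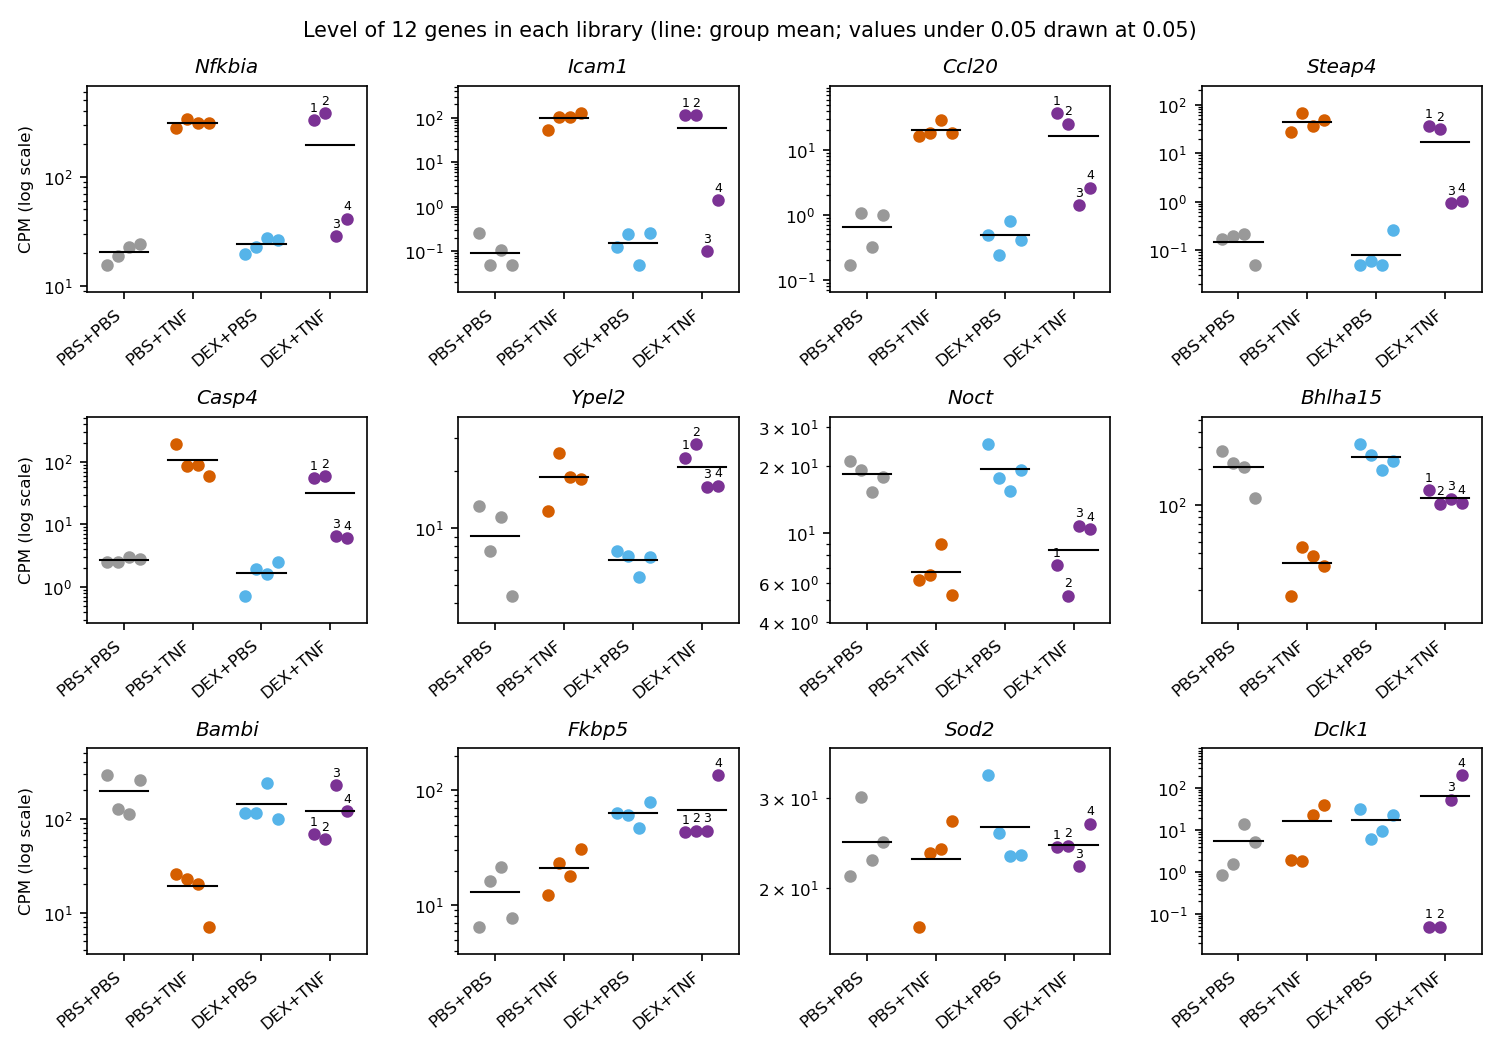
CPM on a log axis for 12 genes in the 16 libraries, 1 point per library with a line at the group mean, values under 0.05 CPM drawn at 0.05, and DEX+TNF points numbered by library. Nfkbia, Icam1 and Ccl20 are high in DEX+TNF 1 and 2, Ypel2 is above DEX+PBS in all 4, Noct and Bhlha15 are below it in all 4, and Dclk1 is at 0 in DEX+TNF 1 and 2 and at 53.8 and 206 CPM in 3 and 4.

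Enzymes of nitric oxide, iron and sugar metabolism were also among the called genes. Nos2, the inducible nitric oxide synthase, was at 103, 106, 0.306 and 20.2 CPM in libraries DEX+TNF 1 to 4, 0, 0.784, 1.15 and 2.60 CPM in DEX+PBS, and PBS+TNF libraries held 181 to 466 CPM (log2 fold change 5.53 ± 1.14, adjusted p = 0.0491). DEX+TNF 3 lay within the DEX+PBS values and no DEX+TNF library reached the PBS+TNF libraries. Gch1, which makes the cofactor of that enzyme, was at 6.45, 6.79, 1.22 and 1.5 CPM and 0.121, 0.301, 0.458 and 0.612 CPM (3.31 ± 0.63, adjusted p = 0.0456). Of 12 tested genes for nitric oxide and reactive oxygen, 2 were called and 8 were higher at an unadjusted p under 0.05 (median log2 fold change 1.37). Sod2, the mitochondrial superoxide dismutase, was at 24, 24.2, 22 and 26.7 CPM and 23 to 33.3 CPM, a log2 fold change of -0.11 ± 0.19.

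Steap4 (ENSMUSG00000012428, chromosome 5, 8010260 to 8032214, plus strand), a metalloreductase, was at 35.6, 31.3, 0.919 and 1.05 CPM in DEX+TNF and 0, 0.0603, 0 and 0.255 CPM in DEX+PBS. Its values in DEX+TNF 3 and 4 were low, yet above all DEX+PBS libraries, and it had the largest ratio of lowest DEX+TNF to highest DEX+PBS library where either group averaged 5 CPM or more. The log2 fold change was 7.19 ± 1.23 (adjusted p = 0.0456) and ran from 6.56 to 8.80 when each library was left out. Of 12 tested acute phase and iron genes Steap4 alone was called (median 0.69). Lcn2, which encodes a siderophore-binding protein, was at 11.8, 5.42, 1.43 and 14.4 CPM and 0.850 to 7.85 CPM (adjusted p = 0.624). Pfkfb3, which makes the activator of phosphofructokinase, was at 175, 222, 10.9 and 38.9 CPM and 8.37, 6.81, 8.02 and 4.44 CPM (4.02 ± 0.65, adjusted p = 0.0456). It was the 1 called gene of 18 on the glycolysis list, whose median was -0.07.

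Among genes of cell death, Casp4 was above DEX+PBS in all 4 libraries. Casp4 (ENSMUSG00000033538, chromosome 9, 5308828 to 5336783, plus strand) encodes caspase-11, the sensor of cytosolic lipopolysaccharide. It was at 55.1, 59.7, 6.43 and 5.98 CPM in libraries DEX+TNF 1 to 4, 0.728, 1.93, 1.60 and 2.5 CPM in DEX+PBS, and PBS+TNF libraries held 59.7 to 191 CPM. Every DEX+TNF library was above the highest DEX+PBS library (log2 fold change 4.17 ± 0.69, adjusted p = 0.0456). Bid, whose cleaved product links death receptors to mitochondria, was at 24.3, 22.4, 2.86 and 3.74 CPM and 0.607, 2.59, 2.52 and 1.33 CPM (2.90 ± 0.59, adjusted p = 0.0456). Bok, a BCL2 family effector, was at 15.9, 16.0, 3.16 and 7.43 CPM and 1.34, 1.51, 1.60 and 2.35 CPM (2.62 ± 0.45, adjusted p = 0.0456).

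Most other genes of their lists did not pass the test. Of 12 tested inflammasome, gasdermin and caspase genes, 1 was called (median 0.24), and of 14 BCL2 family genes, 2 (median 0.23, library medians 0.36, 0.37, 0.28 and 0.32). Of 14 TNF receptor and death signalling genes none was called by edgeR, 5 were higher at an unadjusted p under 0.05, and the median was 0.67. Fas, the death receptor of that list with the lowest p, was at 21.2, 22.4, 8.57 and 2.54 CPM and 1.43 to 5.27 CPM (adjusted p = 0.123). Gsdmd, the pore-forming gasdermin, was at 17.3, 13.9, 1.94 and 3.99 CPM and 1.21 to 4.54 CPM (adjusted p = 0.256).

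Among interferon-induced genes few passed the threshold, although 28 of 30 antiviral genes had a positive fold change. Of all 11809 tested genes, 6359 had a positive fold change. Parp14, a mono-ADP-ribosyltransferase, was the 1 called gene of 30 on the antiviral list, at 106, 98.8, 6.63 and 13.2 CPM in DEX+TNF and 6.55, 9.04, 4.47 and 6.93 CPM in DEX+PBS (3.04 ± 0.63, adjusted p = 0.0488). On that list 17 genes were higher at an unadjusted p under 0.05 and none lower, with a median log2 fold change of 0.87 and library medians of 1.07, 1.22, 0.50 and 0.62. In this list DEX+TNF 3 and 4 lay nearer to DEX+TNF 1 and 2 than they did for the feedback inhibitors. Outside the list, Samd9l, a restriction factor, was at 54.8, 44.6, 16.4 and 17.6 CPM and 10.1, 9.58, 8.71 and 7.04 CPM, with all 4 DEX+TNF libraries above all DEX+PBS libraries (1.92 ± 0.34, adjusted p = 0.0456).

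The GBP and IRG GTPases, which attack vacuoles of intracellular microbes, held no called gene of 11 tested, 7 higher at an unadjusted p under 0.05 and a median of 1.74. Their library medians were 2.41, 2.37, 0.55 and 1.00, against 3.46 to 3.72 in PBS+TNF. Gbp2 had the lowest p of the list, at 28.3, 37.7, 0.919 and 1.99 CPM in DEX+TNF and 0.121 to 0.784 CPM in DEX+PBS (adjusted p = 0.0734). These genes have close paralogs that can share reads. Of 21 class I presentation genes none was called, 9 were higher at an unadjusted p under 0.05 and the median was 0.68. Irf1, a transcription factor upstream of many of them, was at 91.3, 101, 25.2 and 22.9 CPM and 14.8 to 23.9 CPM (adjusted p = 0.103).

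**Figure D5:**
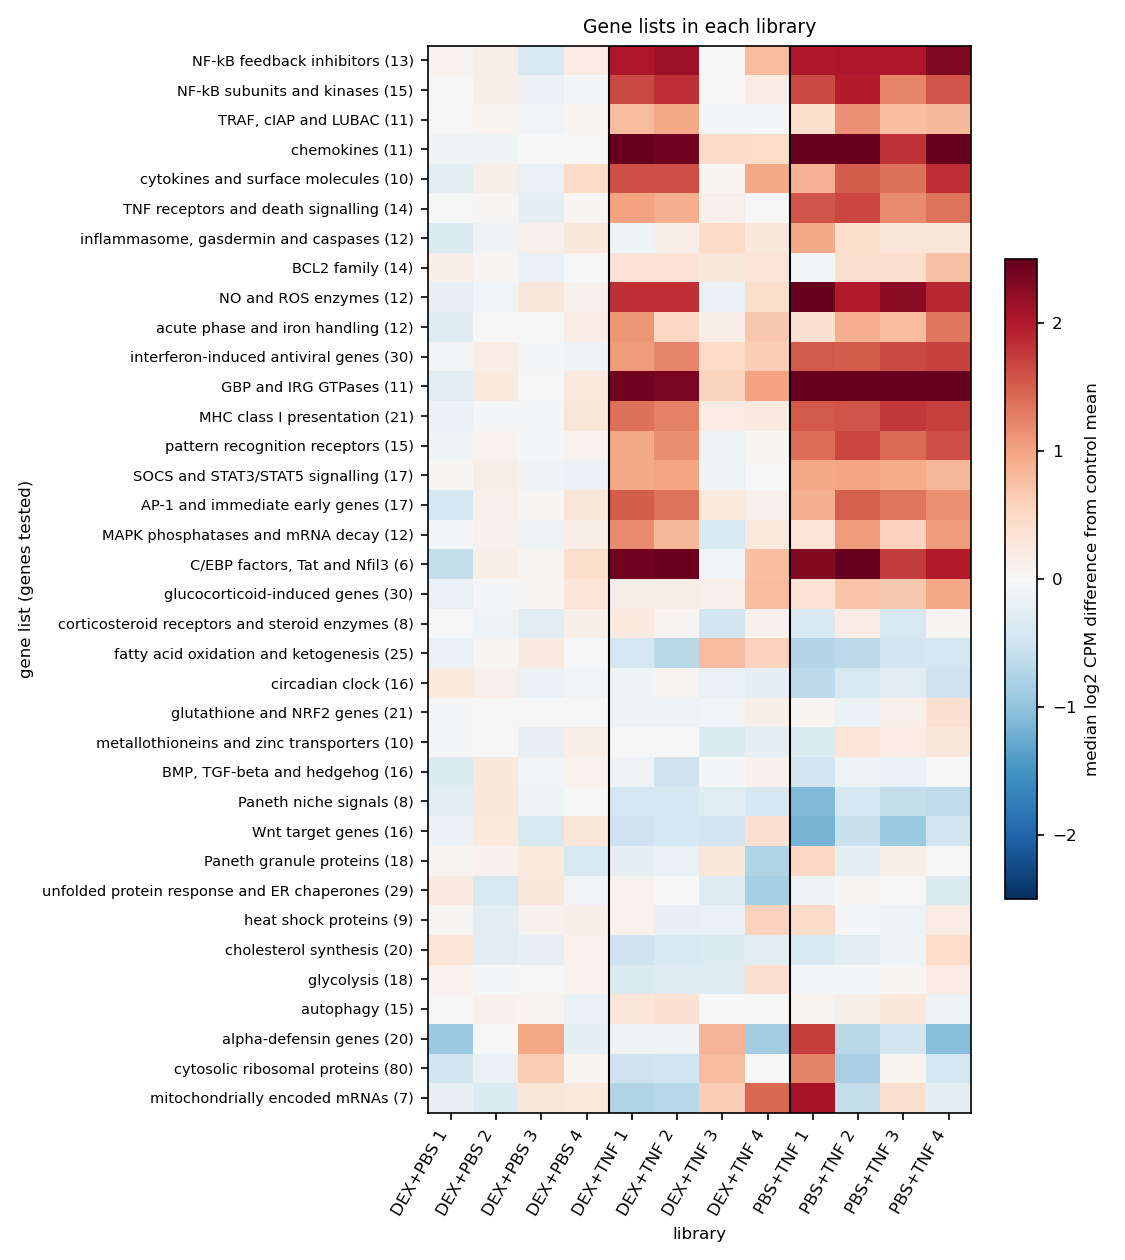
Median difference from the control mean in log2 CPM, over the tested genes of 36 lists (rows), in 12 libraries (columns: DEX+PBS and DEX+TNF against the DEX+PBS mean, PBS+TNF against the PBS+PBS mean), with colour limited at ±2.5. DEX+TNF 1 and 2 are near PBS+TNF for the NF-κB lists (feedback inhibitors 2.02 and 2.12), DEX+TNF 3 and 4 are paler (0.01 and 0.79), and the glucocorticoid list stands at 0.77 in DEX+TNF 4 against 0.12 to 0.16 in the other DEX+TNF libraries.

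Signalling through the gp130 and JAK-STAT receptors gave 2 called genes of 17. Osmr, the receptor subunit for oncostatin M, was at 8.87, 12.8, 0.204 and 1.05 CPM in DEX+TNF and 0.243, 0, 0 and 0.153 CPM in DEX+PBS (5.79 ± 1.10, adjusted p = 0.0456). Socs3, the feedback inhibitor of STAT3 signalling, was at 43.9, 50.2, 9.19 and 5.44 CPM and 1.94, 5.85, 3.21 and 3.62 CPM, and at 109 to 182 CPM in PBS+TNF (2.86 ± 0.59, adjusted p = 0.0486). Even DEX+TNF 1 and 2 stayed below every PBS+TNF library for Socs3. Cebpd, a transcription factor of the acute phase response, was at 13.1, 20.7, 1.74 and 7.83 CPM, 1.09, 2.23, 1.15 and 2.65 CPM and 27.6 to 34.9 CPM in DEX+TNF, DEX+PBS and PBS+TNF (2.55 ± 0.49, adjusted p = 0.0456), again with all DEX+TNF libraries under the PBS+TNF range. Junb, an AP-1 subunit, was at 144, 174, 33.8 and 21.0 CPM and 13.7, 20.1, 19.0 and 23.1 CPM and was the 1 called gene of 17 immediate early genes (2.29 ± 0.48, adjusted p = 0.0491), of which 10 were higher at an unadjusted p under 0.05. Zfp36, whose product shortens the life of cytokine mRNAs, was at 75.1, 71.0, 28.3 and 24.6 CPM and 14.0 to 20.3 CPM (adjusted p = 0.0773).

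The glucocorticoid-induced genes all shared DEX between the 2 groups, so the comparison asks whether TNF shifted them further. Of 30 tested, 2 were called, Cebpd and Tat, both also induced by inflammatory signals. At an unadjusted p under 0.05, 10 were higher and 1 lower. The list median was 0.51, and 0.16 without DEX+TNF 4. Tat, a tyrosine aminotransferase, was at 22.3, 29.1, 0.612 and 2.59 CPM in DEX+TNF and 0, 0.0603, 0 and 0.459 CPM in DEX+PBS (6.20 ± 1.10, adjusted p = 0.0456). The library medians of the list were 0.14, 0.16, 0.12 and 0.77, so DEX+TNF 4 stood apart upwards. Tsc22d3, which encodes GILZ, was at 11.4, 10.7, 24.9 and 49.4 CPM and 21.0, 20.3, 27.0 and 24.5 CPM, with DEX+TNF 1 and 2 lower than 3 and 4. Pdk4, which diverts pyruvate from oxidation, was at 3.95, 4.37, 26.5 and 41.3 CPM and 7.11 to 23.3 CPM, and Angptl4, an inhibitor of lipoprotein lipase, at 1.77, 0.566, 10.003 and 38.1 CPM and 1.82 to 9.43 CPM. Both were lower in DEX+TNF 1 and 2 than in 3 and 4. None of Fkbp5, Sgk1, Tsc22d3, Pdk4 and Angptl4 passed the test, and the sign of each fold change turned negative without DEX+TNF 4. Nr3c1, which encodes the glucocorticoid receptor, was at 15.1, 12.6, 10.8 and 19.1 CPM and 8.86 to 13.2 CPM (log2 fold change 0.33 ± 0.24).

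Fatty acid oxidation and ketogenesis split the libraries in the other order. Of 25 tested genes none was called by edgeR, 4 were higher at an unadjusted p under 0.05, and the library medians were -0.45, -0.69, 0.77 and 0.57 in DEX+TNF 1 to 4, against -0.74 to -0.42 in PBS+TNF. DEX+TNF 1 and 2 thus had the sign of the PBS+TNF libraries and DEX+TNF 3 and 4 the opposite. Enterocytes also express these genes, and their marker sum was 684 CPM in DEX+TNF 4 and 162 CPM in DEX+TNF 3, against 256 to 374 CPM in DEX+PBS. Anpep, an aminopeptidase of the brush border, made up most of that sum in DEX+PBS, at 203 to 328 CPM, and was at 122, 110.3, 98.2 and 230.3 CPM in DEX+TNF. The part of these markers in the result was not tested. The mitochondrially encoded mRNAs split likewise, with medians of -0.76, -0.72, 0.62 and 1.44 over 7 genes, none of them called.

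Some genes lay on one side of the DEX+PBS range in all 4 DEX+TNF libraries. Over all tested genes, 243 (2.06%) had every DEX+TNF library above every DEX+PBS library and 310 (2.63%) had every one below. Of the 844 genes higher with TNF alone, 103 were above in all 4 (12.2%), 330 in DEX+TNF 1 and 2 only, 207 in 1, 2 and 4, 109 in 1, 2 and 3, and 29 in none. Of the 632 genes lower with TNF alone, 120 were below in all 4 (19.0%), 147 in DEX+TNF 1 and 2 only, 116 in 1, 2 and 4, 66 in 1, 2 and 3, and 58 in none. Both shares for all 4 libraries were above the background of 2.06% and 2.63%. Of the 844, however, 91.5% and 92.5% were above in DEX+TNF 1 and 2, which raises the share for all 4. In DEX+TNF 3, 26.9% of the 844 were above, beside 25.5% of all genes, and 36.6% of the 632 were below, beside 25.9%. The shares for all 4 therefore do not by themselves show a response in each library. Of the 38 called genes that rose, 24 were above in all 4.

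Ypel2, a member of the yippee-like family, was raised in all 4. It was at 23.6, 27.7, 16.5 and 16.8 CPM in libraries DEX+TNF 1 to 4 and 7.52, 7.11, 5.50 and 7.04 CPM in DEX+PBS 1 to 4. Even its lowest DEX+TNF library was well above the highest DEX+PBS library, and the log2 fold change was 1.63 ± 0.30 (adjusted p = 0.0456). Mtmr7, a phosphoinositide phosphatase, was at 9.60, 7.20, 2.65 and 4.59 CPM and 0.243, 1.45, 0.458 and 1.58 CPM (2.57 ± 0.50, adjusted p = 0.0456). Neurl1a, a ubiquitin ligase, was at 4.44, 10.9, 2.45 and 5.58 CPM and 0.607, 0.0603, 1.37 and 1.22 CPM without passing the test (adjusted p = 0.0734). Bnip5 was at 7.34, 8.41, 8.78 and 24.4 CPM and 3.64, 3.32, 2.52 and 4.28 CPM (adjusted p = 0.118), and Gm9926 and AW112010 completed the 10 genes with the widest gap upwards, at adjusted p of 0.0636 and 0.098.

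Of the genes that fell, Noct passed the test. Noct (ENSMUSG00000023087, chromosome 3, 51128616 to 51159065, plus strand) encodes nocturnin, a rhythmic phosphatase that acts on NADPH. It was at 7.18, 5.26, 10.8 and 10.4 CPM in libraries DEX+TNF 1 to 4 and 25.1, 17.7, 15.5 and 19.3 CPM in DEX+PBS 1 to 4, with no overlap (log2 fold change -1.20 ± 0.25, adjusted p = 0.0488), and leaving out each library gave -1.34 to -1.03. It was the 1 called gene of 16 on the clock list (median 0.04). Nr1d1, the clock repressor REV-ERBα, was at 15, 7.20, 13.0 and 12.8 CPM and 29.1, 20.5, 20.8 and 22.5 CPM, also with no overlap, but did not pass (adjusted p = 0.279).

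Bhlha15 (ENSMUSG00000052271, chromosome 5, 144127086 to 144131259, plus strand), which encodes MIST1, a factor that builds the secretory apparatus, was at 133, 103, 113 and 105 CPM in libraries DEX+TNF 1 to 4 and 317, 261, 193 and 231 CPM in DEX+PBS 1 to 4. All 4 libraries lay below DEX+PBS and close to each other, whereas PBS+TNF lay at 17.9 to 44.9 CPM and PBS+PBS at 113 to 279 CPM. The log2 fold change was -1.14 ± 0.29 (adjusted p = 0.118). Ptpro, a receptor tyrosine phosphatase, was at 13.5, 14.4, 13.5 and 5.93 CPM and 22.7, 23.5, 30.01 and 27.6 CPM (adjusted p = 0.212). Galnt10, which starts mucin-type glycosylation, was at 71.9, 80.4, 77.1 and 62.7 CPM and 126, 146, 117 and 133 CPM (adjusted p = 0.172). Frem2, Fzd9, Apeh and Klhdc8a also had every DEX+TNF library below every DEX+PBS library, at adjusted p of 0.098, 0.103, 0.173 and 0.126.

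Paneth cell functions showed no called gene by edgeR. Of 18 granule protein genes, 1 was higher and 2 lower at an unadjusted p under 0.05, with a median of -0.16. Of 20 α-defensin genes none passed either threshold, the median was -0.02 and the library medians were -0.11, -0.08, 0.84 and -0.88. The defensins thus ranged more between DEX+TNF 3 and 4 than between the groups, and their near-identical sequences can share reads. Mmp7, the protease that activates the defensins, was at 4434, 4826, 10979 and 2989.7 CPM and 3675 to 11617 CPM. Of 8 niche signal genes 2 were lower at an unadjusted p under 0.05, the median was -0.36, and the library medians were alike at -0.43, -0.42, -0.31 and -0.43. Dll4 and Dll1, ligands of Notch for the stem cells, were at 7.74, 5.26, 24.4 and 16.1 CPM and 9.28, 8.65, 14.4 and 23 CPM in DEX+TNF, against 22.3 to 34.8 CPM and 16.3 to 27.7 CPM in DEX+PBS (adjusted p = 0.373 and 0.378).

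The unfolded protein response list held no called gene of 29, 3 higher and 3 lower at an unadjusted p under 0.05, and a median of -0.32, with library medians of 0.08, 0.01, -0.31 and -0.84. Xbp1, its master factor, was at 299.6, 314, 181 and 134 CPM and 187 to 251 CPM, with DEX+TNF 1 and 2 above 3 and 4. Hspa5, the chaperone BiP, was at 598, 504, 343 and 218 CPM and 312 to 632 CPM. Of 16 Wnt target genes 4 were lower at an unadjusted p under 0.05, and of 20 cholesterol synthesis genes 4 were, with medians of -0.16 and -0.31. Neither list held a called gene. Of 80 cytosolic ribosomal protein genes none passed either threshold (median -0.04), and the library medians ran from -0.53 to 0.76 in DEX+TNF and from -0.46 to 0.64 in DEX+PBS.

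The remaining lists gave few or no calls. No gene was called by edgeR among 11 TRAF, cIAP and LUBAC genes (median 0.52), 12 MAPK phosphatase and mRNA decay genes (0.57), 8 corticosteroid receptor and steroid enzyme genes (0.09), 21 glutathione and NRF2 genes (0.10), 10 metallothioneins and zinc transporters (-0.06), 16 BMP, TGF-β and hedgehog genes (0.01), 9 heat shock proteins (0.17) and 15 autophagy genes (0.33). The C/EBP list repeats Cebpd and Tat as its 2 called genes of 6 (median 1.62). Ihh, a hedgehog ligand, was at 1.53, 0.243, 6.02 and 6.33 CPM in DEX+TNF and 5.38 to 13.4 CPM in DEX+PBS (adjusted p = 0.395). Mt1 and Mt2, metallothioneins that glucocorticoids and zinc induce, had log2 fold changes of 0.52 ± 0.27 and 0.07 ± 0.56 and did not pass. Per1, a clock gene that glucocorticoids induce, had 0.18 ± 0.30.

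The genes with the widest spread within DEX+TNF included markers of tuft cells. Dclk1, a kinase that marks tuft cells, was at 0, 0, 53.8 and 206 CPM in libraries DEX+TNF 1 to 4 and 31.6, 6.21, 9.74 and 23.7 CPM in DEX+PBS. Trpm5, their taste-signalling channel, was at 0.403, 0, 55.5 and 189.8 CPM in DEX+TNF and 6.45 to 36.7 CPM in DEX+PBS. DEX+TNF 1 and 2 were thus below every DEX+PBS library for both genes, and DEX+TNF 3 and 4 above every one. Sh2d7, Sh2d6, Avil, Alox5, Irag2, Rgs13, Inpp5d and Siglecf were among the 15 genes with the largest SD as well. Apoa1, an apolipoprotein of enterocytes, was at 0, 0, 3.06 and 87.6 CPM, and Fabp1, a fatty acid binding protein, at 0, 0, 6.53 and 56.2 CPM, both highest in DEX+TNF 4. Icam1 was on the same list and, unlike these genes, was higher in DEX+TNF 1 and 2 than in 3 and 4.

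The second question is whether the response to TNF differed with DEX from that without, tested as the interaction of both injections in the same fit. By edgeR 0 of 11809 genes passed (0.0%), 642 did at an unadjusted p under 0.05, the smallest adjusted p was 0.102, and DESeq2 called 9. The median interaction over all genes was 0.05. All 38 called genes that rose after DEX were also called higher with TNF alone, where 7.15% of all genes were, and 31 of them had the smaller fold change after DEX. That fold change summarises 4 unlike libraries, with 22, 25, 2 and 2 of the 38 at or above the lowest PBS+TNF library in DEX+TNF 1 to 4. The share of all genes with a smaller fold change after DEX was not counted. For 4 of the 38 the interaction had an unadjusted p under 0.05.

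Bambi is a decoy receptor of TGF-β and BMP signalling. It was at 7.13 to 25.6 CPM in PBS+TNF and 112 to 289.9 CPM in PBS+PBS, a log2 fold change of -3.37 ± 0.51 (adjusted p = 0.000976). After DEX it was at 69.0, 60.6, 228 and 121 CPM in libraries DEX+TNF 1 to 4 and 116, 116, 237 and 99.98 CPM in DEX+PBS 1 to 4, a log2 fold change of -0.25 ± 0.46 (adjusted p = 0.964). All 4 DEX+TNF libraries were above all 4 PBS+TNF libraries, and the interaction was 3.12 ± 0.67 by edgeR (adjusted p = 0.532). Bambi was 1 of the 9 genes that DESeq2 called for the interaction (adjusted p = 0.00714). For Bhlha15 the interaction was 1.49 ± 0.41 (adjusted p = 0.729) and for Cebpd it was -1.92 ± 0.68 (adjusted p = 0.816).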

How the data were processed

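RNA was sequenced from sorted Paneth cells of 16 mice, after a stranded mRNA library preparation. Per the labels and the study's methods, the authors aligned reads with STAR to GRCm39 with GENCODE M30 and deposited raw counts per gene for each library. The counting program, its strand setting and its use of multimapping reads are not given in the sources used here. Titles of 1 group write TNFS where the other labels write TNF, and the group was read as TNF. Gene names and positions came from GENCODE M39, which matched 54749 of 55414 genes.

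Genes were kept by edgeR's filterByExpr (version 4.0.16, R 4.3.3), scaled by TMM and tested with the quasi-likelihood fit over all 4 groups, with Benjamini-Hochberg adjustment over 11809 genes and a threshold of 0.05. All adjusted p printed come from that test unless DESeq2 (1.42.0) is named. Values after ± are the absolute log2 fold change divided by the square root of the F statistic of that test. They approximate an SE and were not estimated separately, and they are least reliable for genes at few counts. CPM use TMM factors, and log2 CPM a prior count of 2. Differences of single libraries were taken from the mean log2 CPM of the control group.

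The members and gene lists were chosen with earlier results of these data known. Named genes were the called genes, with values per library for those with the largest fold changes, the 10 with the widest gap between groups in each direction, the 15 with the largest SD within DEX+TNF, 30 fixed by name and up to 4 a list. Results of 2 called genes and of a few others that the rule names are not reported here. Alternatives were other scaling, filters, tools, thresholds, a replicate block and leaving out each library. Libraries held 7286307 to 15832111 counts.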

Additional observations from a re-analysis of the deposited data

Results flagged for a closer look

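Values of 1 library that stood apart from the other 3 of its group by Dixon's criterion are given here, with the reminder that chance alone marks about 1 in 20 groups. In DEX+TNF 4, Fkbp5 was at 135 CPM, Sgk1 at 115 CPM, Bnip5 at 24.4 CPM and Ptpro, on the low side, at 5.93 CPM. The same library stood apart for its median difference from the DEX+PBS mean over glucocorticoid-induced genes (0.77), Wnt target genes (0.37) and glycolysis genes (0.42), for its enterocyte marker sum of 684 CPM and for its red blood cell marker sum of 0.648 CPM. DEX+TNF 3 stood apart over the Paneth niche signals, at -0.31. Among DEX+PBS libraries, Bambi was at 237 CPM in DEX+PBS 3, Gm9926 at 0.971 CPM in DEX+PBS 1, and Irf5 and Tat at 0.102 and 0.459 CPM in DEX+PBS 4. Of the 14 values, 9 thus belong to DEX+TNF 4. How many groups were screened is not given here, so the 14 cannot be set against the number that chance would mark. The red blood cell sum and the Irf5 value stood apart from libraries that were all at 0.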

How the results depend on the processing

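The count of 40 genes called for TNF after DEX depended on the settings. It was 40 with relative log expression scaling and with TMM without α-defensin genes, 34 with upper-quartile scaling and 33 with a filter of 5 CPM. It was 6 with no filter on low counts, 0 with the DEX libraries fitted alone, 259 with DESeq2, 79 at an adjusted p under 0.1 and 0 at 0.01. Leaving out each library in turn gave 0 to 362 calls, the highest with DEX+TNF 3 left out, 230 with DEX+TNF 4 left out, and 0 with any 1 of the other 14 libraries left out. With DEX libraries alone the smallest adjusted p was 0.228. Same-numbered DEX+TNF and DEX+PBS libraries deviated together at correlations of -0.04, 0.23, 0.32 and 0.27 across genes, and since 1 of the 4 was not positive and no label ties the numbers to a shared litter, day or animal, they were not taken as a pairing. A fit with the replicate number as a block called 0 genes in place of 40, while 1184 had an unadjusted p under 0.05. All 40 genes kept their sign under every alternative. For the interaction the count of 0 became 9 with DESeq2 and ranged from 0 to 1 when each library was left out, the 1 call appearing without PBS+PBS 2, and it was 0 under the other alternatives.

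Of 74 genes recomputed, 13 changed sign in 22 values, none of them called. With the replicate block Tsc22d3 was -0.10, Fkbp5 -0.043 and Mt2 -0.012. Over the left-out libraries the log2 fold change ran from -0.17 to 0.018 for Sod2, -0.064 to 0.35 for Tnfrsf1a, -0.56 to 0.30 for Tsc22d3, -0.50 to 0.25 for Fkbp5, -0.0030 to 0.38 for Per1, -0.10 to 0.91 for Sgk1, -0.16 to 1.00 for Pdk4, -0.36 to 1.73 for Angptl4, -0.76 to 0.58 for Mt2, -0.77 to 0.11 for Bambi, -0.69 to 0.24 for Mmp7, -0.081 to 0.30 for Xbp1 and -0.42 to 0.034 for Hspa5. The lowest value was without DEX+TNF 4 for Tsc22d3, Fkbp5, Sgk1, Pdk4, Angptl4 and Mt2. The cause was not tested. Of 828 list medians, 22 moved by more than the SD among the DEX+TNF libraries, and the medians ran widely over the alternatives for chemokines (0.57 to 4.67), acute phase and iron genes (-0.021 to 0.90), BCL2 family genes (0.051 to 0.38), inflammasome genes (0.061 to 0.52), glutathione genes (-0.023 to 0.22) and glucocorticoid-induced genes (0.16 to 0.70). With 4 libraries a group and 1 of them, DEX+TNF 3 or 4, able to move the count this far, a gene that missed the threshold is not shown to be unchanged. The libraries come from single mice in 1 experiment, and genes at a few counts, such as Il4i1 and Irf5, are limited by depth.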
